A study of Mus musculus with 10 samples.

Results

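The 44 genes described here encode the constitutive proteasome and the proteins that build and regulate it. They are the genes of the deposited expression matrix whose symbol is Psma, Psmb, Psmc, Psmd, Psme, Psmf or Psmg followed by a number, with the immunoproteasome genes Psmb8, Psmb9 and Psmb10 left out. The matrix lists 15686 genes, of which 47 have such a symbol, and all 44 members passed the filter on low counts and were tested. Nuclear RNA had been sequenced at 5 stages of the in vitro differentiation of HM-1 cells, a mouse embryonic stem cell line, towards blood, with 2 libraries per stage. ES were undifferentiated cells kept in serum with LIF. HB were hemangioblast cells, obtained by magnetic sorting of FLK1+ cells from embryoid bodies after 3 d. HE1, HE2 and HP were sorted after a further 2.5 d of blast culture with VEGF and IL-6, as KIT+ TIE2+ CD41- cells for the first stage of the hemogenic endothelium, KIT+ TIE2+ CD41+ cells for the second stage and KIT+ TIE2- CD41+ cells for hematopoietic progenitors. All stages came from 1 cell line, and the study describes the replicates of a stage as biologically independent. The labels only number them and do not name the cultures they came from.

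The proteasome degrades proteins tagged with ubiquitin. Its core is a barrel of stacked rings, with alpha subunits (Psma) at the outer rings, which form the gate, and beta subunits (Psmb) at the inner rings, of which Psmb5, Psmb6 and Psmb7 cut the substrate. A cap sits on the barrel and consists of a base with the ATPases Psmc1 to Psmc6, which unfold the substrate, and of a lid that includes Psmd14, the enzyme that removes ubiquitin. Other activators can replace the cap, namely Psme1 with Psme2, Psme3 and Psme4. Assembly of the core is helped by the chaperones Psmg1 to Psmg4 and that of the base by Psmd5, Psmd9 and Psmd10. Cells that lose proteasome activity raise many of these genes together through the transcription factor Nfe2l1, which binds the antioxidant response element, and Nfe2l2 binds the same letters. Psma8 is a form of the alpha subunit Psma7 that is known from the testis.

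Short stretches of promoter sequence are given first for members that moved with the stages or carried the letters of that element. RefSeq promoters (GRCm38.p6) were matched for 36 of the 44 members. The letters TGACNNNGC, the core of the antioxidant response element, were found on either strand in the 250 bases before the start of 5 of the 36, namely Psmb5, Psmb6, Psmc6, Psmd12 and Psmd9, and in 11.5% of all 27025 genes with such a window. CCAAT was found in 12 of the 36 and in 37.5% of all genes, CCGGAAGT in 5 of the 36 and in 3.23%, and TGACGTCA in 0 of the 36 and in 1.77%. With the 50 bases after the start included, TGACNNNGC was found in 6 of the 36 and in 3781 of the 27025 genes, and CCGGAAGT in 9 and in 4.31%. TGACNNNGC and TGACGTCA share their first letters and differ further on, so that a run which starts with these letters cannot match both. Each stretch holds the 120 bases before the start, 5′ to 3′ on the strand of the gene, with the letters that match TGACNNNGC (Psmb5 and Psmd9) or CCAAT, here read as ATTGG on the other strand (Psmd10 and Psme3), in capitals. The stretches are at chr14:54617996-54618115 on the minus strand for Psmb5, chr5:123228070-123228189 on the plus strand for Psmd9, chrX:140956712-140956831 on the minus strand for Psmd10 and chr11:101316093-101316212 on the plus strand for Psme3.
Psmb5: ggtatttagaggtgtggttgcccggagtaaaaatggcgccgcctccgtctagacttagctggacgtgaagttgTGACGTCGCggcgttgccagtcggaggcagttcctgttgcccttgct
Psmd9: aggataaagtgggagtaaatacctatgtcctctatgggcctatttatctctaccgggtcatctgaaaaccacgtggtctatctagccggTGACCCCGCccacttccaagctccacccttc
Psmd10: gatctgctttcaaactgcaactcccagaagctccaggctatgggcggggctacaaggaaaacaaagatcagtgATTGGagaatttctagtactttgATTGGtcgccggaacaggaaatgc
Psme3: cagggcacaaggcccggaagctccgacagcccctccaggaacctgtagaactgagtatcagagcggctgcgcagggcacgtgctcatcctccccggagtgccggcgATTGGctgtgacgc
The element lay 39 to 47 bases before the start of Psmb5 and 23 to 31 bases before that of Psmd9. A match of letters is a description and not a site at which binding was measured.

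CPM below are counts scaled to a common library size (TMM). The libraries held between 24920434 and 58782055 counts, of which the 44 genes took between 0.448% and 0.625%. The ES markers Pou5f1, Nanog, Zfp42 and Esrrb were highest in ES, the mesoderm markers T, Etv2 and Mixl1 in HB, the endothelial markers Cdh5, Tek, Pecam1 and Sox17 in HE1, and the blood markers Itga2b, Runx1, Gfi1b and Spi1 in HE2 and HP. Itga2b encodes CD41 and was nevertheless at 227 and 127 CPM in the CD41- cells of HE1, beside 505 and 469 CPM in HE2. HE1 replicate 2 stood apart from HE1 replicate 1. All 4 ES markers were higher in it, with Pou5f1 at 26.3 against 2.82 CPM, as were all 4 stroma markers, with Col1a1 at 671 against 176 CPM, and 2 of 3 cardiac markers, with Tnnt2 at 74.2 against 16.0 CPM, and all 3 macrophage markers, with Cd68 at 13.7 against 7.53 CPM. Of the 4 endoderm markers 0 were higher in it, with Cubn at 6.41 against 9.30 CPM. The endothelial markers Cdh5, Tek, Pecam1 and Sox17 were each lower in it, with Cdh5 at 798 against 1431 CPM. Of the neural markers, Sox1 was higher in it, at 2.15 against 0 CPM, and Pax6 lower, at 0.198 against 0.589 CPM. The nuclear RNA Neat1 was at 316 against 55.7 CPM. The embryonic globin Hbb-bh1 lay between 1063 and 2622 CPM in HE2 and HP and at 279 and 136 CPM in HE1. The part of these other cells in the results was not tested. Comparisons with HE1 are therefore also given without HE1 replicate 2. In bulk RNA fewer cells that express a gene and less RNA per cell cannot be told apart.

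The genes of the core and the cap were transcribed at all 5 stages and differed little between them. Leaving out Psma8, the ratio of the highest to the lowest stage mean had a median of 1.41 over 43 genes and lay between 1.18 and 3.10, with 31 of them under 1.5-fold. Of the 44 genes, 22 were highest in HE2 and 13 in HP, whereas 23 were lowest in HE1 and 16 in ES. An edgeR quasi-likelihood F test over the 5 stages, with Benjamini-Hochberg adjustment over all 22596 tested genes, called 17 of the 44 at an adjusted p under 0.05, and 66.7% of all tested genes. By role, 3 of 14 core subunits, 5 of 17 cap subunits, 2 of 4 activators, 5 of 7 assembly chaperones, the inhibitor Psmf1 and Psma8 were called. The count of 17 fell to 9 and 8 without ES replicate 1 or 2, where 48% and 48.3% of all tested genes were called.

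**Figure D1:**
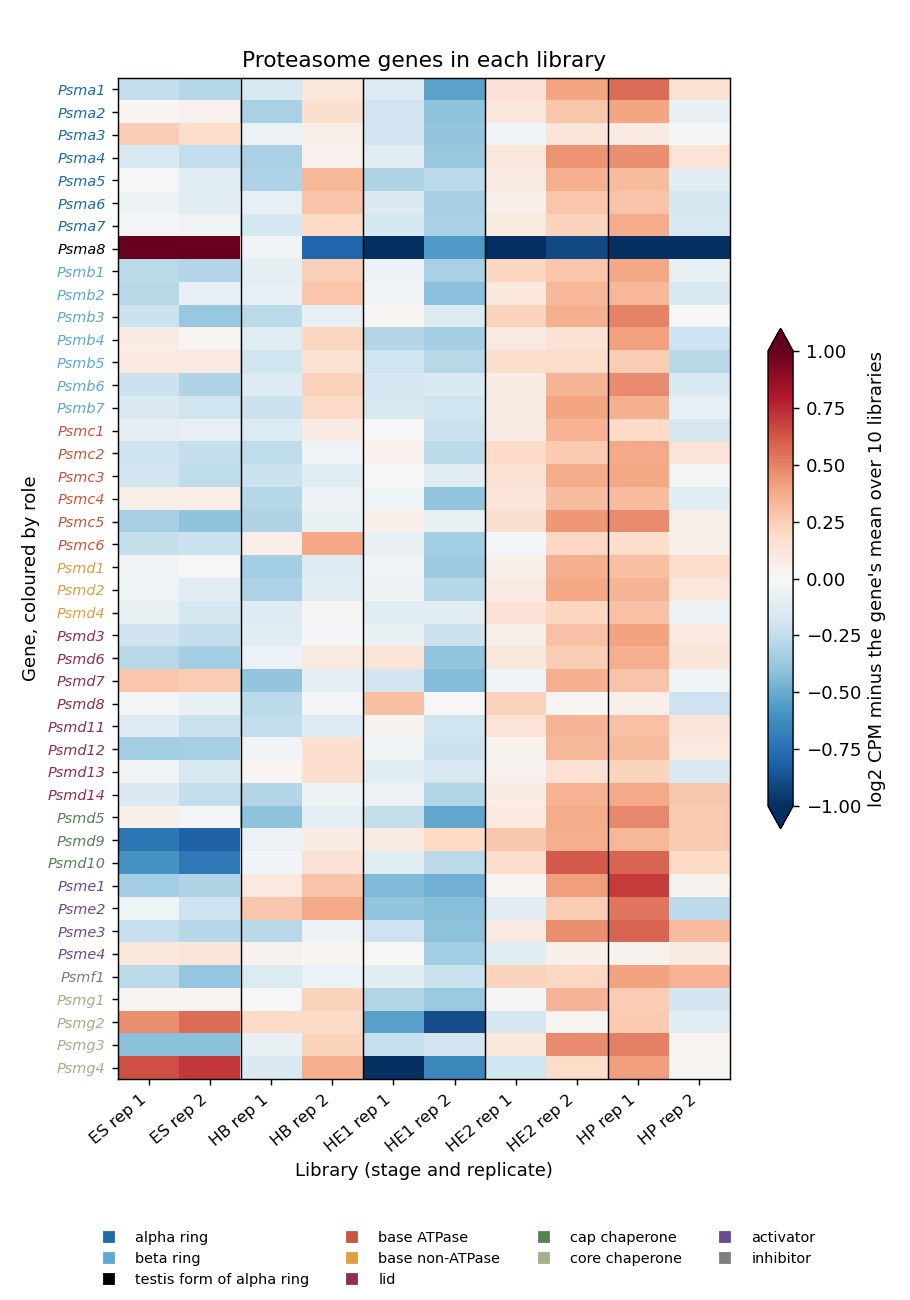
Heat map of the 44 genes (rows, coloured by role) in the 10 libraries (columns), where the colour is the log2 CPM (after adding 0.01) minus the mean of the gene and the scale ends at 1 and -1. Most rows are above their mean in HE2 replicate 2 and HP replicate 1 and below it in HE1 replicate 2, and Psma8 is high in the ES libraries.

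Levels of different genes were compared per length, as CPM per kilobase of exon. The median over the 14 core subunits stood at 38.8 ± 1.10 (SD, n = 2) for ES, 41.9 ± 7.36 for HB, 39.5 ± 2.98 for HE1, 52.3 ± 5.63 for HE2 and 52.9 ± 11.6 for HP. The median over the 17 cap subunits was at 36.9 ± 1.78 (ES), 39.0 ± 3.10 (HB), 39.6 ± 3.38 (HE1), 45.6 ± 1.46 (HE2) and 45.0 ± 6.003 (HP). Core and cap differed by less than the SD of the core median in HB, HE1 and HP, while the core was higher by more than that SD in ES and HE2. Subunits that are present in equal number in the assembled particle were not equal in nuclear RNA. Within the core, the highest subunit was 3.75-fold above the lowest in ES (Psmb4 at 82.3 and Psmb1 at 22.0) and 3.05-fold in HP (Psmb6 at 92.2 and Psmb1 at 30.2). Among the ATPases of the base, Psmc5 was the highest and Psmc2 the lowest at every stage, with a ratio of 3.74 in ES and 4.19 in HP. In TPM, the unit planned at first, the medians of HE1 were above those of HE2, at 63.5 against 59.5 for the core and 63.6 against 51.9 for the cap, so that this direction depends on the unit. The exon length counts all annotated isoforms, of which not every one need be transcribed.

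Except for Psmg1, the assembly chaperones and the inhibitor were lower per length than each of the 31 core and cap subunits in the mean over the libraries. Psmc5 was first of the 44 genes at 105.8 CPM per kilobase, Psmd2, the largest scaffold of the base together with Psmd1, followed at 95.6, and then the alpha subunit Psma6 at 87.0. Of the 7 chaperones, Psmg1 was the highest at 28.8 and took place 31, above Psmd13, Psmb1 and Psmc2, and the others lay between 4.12 (Psmd9) and 17.95 (Psmg2). Psmf1, an inhibitor that binds the core, was at 4.65. Among the activators, Psme3, which acts in the nucleus, was at 74.4, Psme4, a large activator also of the nucleus, at 42.8, Psme1 at 21.9 and Psme2, its partner, at 16.3.

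**Figure D2:**
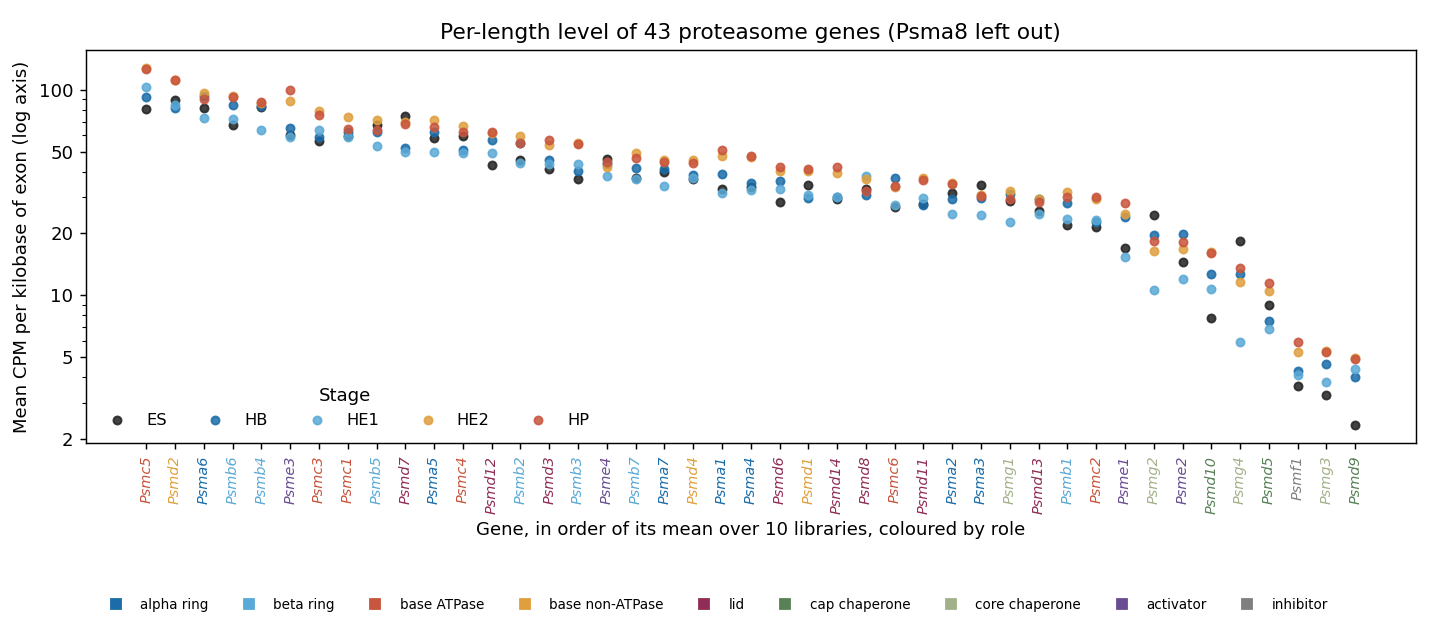
Mean CPM per kilobase of exon on a log axis for 43 genes, ordered by their mean over the 10 libraries, with 1 point per stage and gene labels coloured by role. Core and cap subunits fill the upper range, and the activators Psme1 and Psme2 and all chaperones but Psmg1 lie below it. The points of Psmg4, Psmg2, Psmd9 and Psmd10 spread over 2-fold or more between the stages.

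Psma8 had the largest change of the 44 genes and was near the limit of detection after ES. It lies at chromosome 18, 14706151 to 14762301 (mm10), on the plus strand. The ES libraries held 19.2 and 19.8 CPM (1081 and 690 counts). HB replicates held 0.529 and 0.310 CPM, HE1 replicates 0.126 and 0.363, HE2 replicates 0.244 and 0.286, and HP replicates 0.0684 and 0.127. Both ES libraries were above all 8 others, and HE1 replicate 1 and HP replicate 1 held 3 counts each, which is the floor below which a level was not told from 0. The log2 fold change was -5.54 (SE 0.45, edgeR adjusted p = 9.53e-06) in HB against ES and -7.64 (SE 0.53, adjusted p = 1.79e-06) in HP against ES. From the summed counts alone, HP held 0.479% of the ES level, with an exact 95% interval of 0.192% to 0.989% that covers counting error only. Both calls held in all 17 alternative analyses.

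The canonical subunit that Psma8 can replace was in the same range at all stages. Psma7 was at 124 and 122 CPM in the ES libraries, 110.0 and 143 in those of HB, 110.2 and 99.4 at the HE1 stage, 133 and 145 in HE2 libraries and finally 161 and 111 in HP. The libraries of HB and HP spanned those of ES, those of HE2 lay above them and those of HE1 below. Per length, Psma8 made up 16.0% and 16.7% of the sum of both genes in the ES libraries and between 0.0523% and 0.589% in the others. HE1 replicate 2, the library with more Pou5f1, had 0.448% and HE1 replicate 1 had 0.141%. The part of the ES marker RNA of this library in that value was not tested.

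In HB against ES, which compares the mesodermal stage with the stem cells, few members were called in the fit of all 10 libraries and they moved both ways. edgeR called 3 members as higher and 2 as lower, where 17.8% of all tested genes were called as higher and 22.6% as lower. With total counts in place of TMM factors 7 were higher (20.5% of all tested genes). With only the 4 libraries compared 12 were higher and 4 lower (29.8% and 33.2%). The median log2 fold change of the 44 genes was 0.09 and that of all tested genes was 0. The former was -0.02 without HB replicate 2, with 20 genes above 0 and 24 below, and 0.24 without HB replicate 1. None of the 14 core subunits was called, and at an unadjusted p under 0.05 the count was also 0. Limma-voom and DESeq2 called 0 of them, beside 18.3% and 17.8% of all tested genes as higher and 24.5% and 21.6% as lower.

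Of the 3 chaperones of the base, 2 rose. Psmd9, which holds the ATPase subunits before they join the ring, had levels of 17.4 and 16.5 CPM (ES), 27.7 and 30.4 (HB), 30.6 and 33.1 (HE1), 34.7 and 37.1 (HE2) and 36.3 and 34.6 CPM (HP). Each of the 8 differentiated libraries was above both ES libraries. The change on the log2 scale was 0.78 (SE 0.14, edgeR adjusted p = 0.00170) in HB against ES and 1.06 (SE 0.15, adjusted p = 0.000155) in HP against ES, and both calls held in all 17 alternatives. Psmd10, also known as gankyrin, stood at 11.8 and 10.9 CPM for ES, at 17.6 and 19.8 for HB, at 16.5 and 14.9 for HE1, at 20.2 and 27.4 for HE2 and at 26.8 and 20.5 for HP. It too was above ES in all 8 libraries, with a change of 0.72 (SE 0.21, edgeR adjusted p = 0.0188) in HB and of 1.05 (SE 0.21, adjusted p = 0.00172) in HP. The other chaperone of the base, Psmd5, was at 66.4 and 63.7 CPM in ES and at 48.6 and 60.1 in HB, with a log2 value of -0.26 that was not called. Of the 17 cap subunits, 1 rose and 1 fell. The ATPase Psmc6 was at 93.5 and 95.0 CPM in ES and at 115 and 144 in HB, a change of 0.46 (SE 0.16, edgeR adjusted p = 0.0420). The lid subunit Psmd7 was at 169 and 167 CPM in ES and at 106 and 131 in HB, a change of -0.50 (SE 0.18, adjusted p = 0.0495). The call of Psmd7 was lost in 8 of 17 alternatives, that of Psmc6 in 6 and that of Psmd10 in 3. Without either ES replicate or HB replicate 2, 1 member was called as higher, beside 9.44% to 11% of all tested genes.

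**Figure D3:**
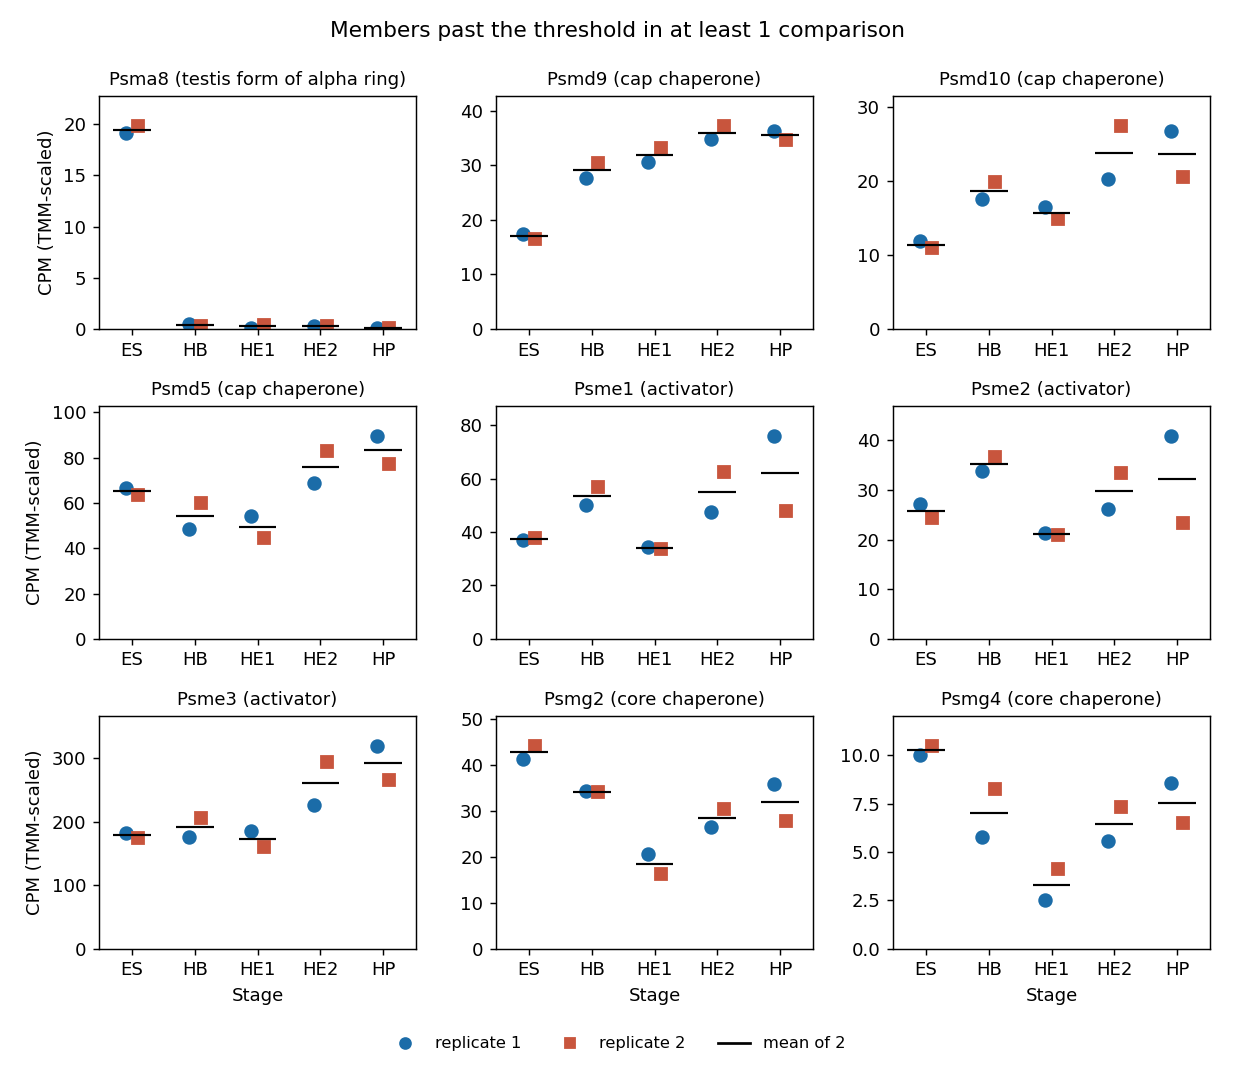
CPM per library for 9 members that passed the threshold in at least 1 comparison, with a circle for replicate 1, a square for replicate 2, a line at their mean and axes that start at 0. Psma8 is at 19.2 and 19.8 CPM in ES and at or below 0.529 CPM later, Psmd9 is above ES in all later libraries, and Psme1, Psme2, Psmg2 and Psmg4 have their lowest or nearly lowest values in HE1.

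In HE1 against HB, the step into the hemogenic endothelium, the members that passed the test were lower. Of the 44 genes, 4 were called as lower and 0 as higher, where edgeR called 14.8% of all tested genes as lower and 17.5% as higher. At an unadjusted p under 0.05, 0 members were higher and 6 lower, beside 23.6% and 20.3% of all tested genes. Limma-voom called 0 as higher and 4 as lower (17.2% and 15.7% of all tested genes) and DESeq2 0 and 5 (18% and 15.8%). The median log2 fold change was -0.20 for the 44 genes and 0.04 for all tested genes. Without HE1 replicate 2 it was -0.11 for the 44 genes and 2 were called as lower (10.1% of all tested genes), and 1 was called without HB replicate 2 (7.02%), with a median of -0.07. The median was -0.35 without HB replicate 1 and -0.30 without HE1 replicate 1. All 4 were assembly chaperones of the core or activators. Of the 31 core and cap subunits, 0 were called by edgeR or limma-voom, DESeq2 called 1 cap subunit as lower, and 1 had an unadjusted p under 0.05 in edgeR.

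Psmg2, which pairs with Psmg1 to build the alpha ring, was at 41.4 and 44.2 CPM in the ES libraries, 34.4 and 34.2 in those of HB, 20.6 and 16.3 at the HE1 stage, 26.6 and 30.6 in HE2 libraries and finally 36.0 and 27.9 in HP. HE1 lay below all other stages. The fall from HB to HE1 on the log2 scale was -0.90 (SE 0.18, edgeR adjusted p = 0.00442) and it held in all 17 alternatives. Psmg4, which pairs with Psmg3, had levels of 10.0 and 10.5 CPM (ES), 5.79 and 8.25 (HB), 2.52 and 4.10 (HE1), 5.58 and 7.30 (HE2) and 8.56 and 6.52 CPM (HP). HE1 was again below all other stages, with a change from HB of -1.08 (SE 0.32, edgeR adjusted p = 0.0265), and the call was lost in 3 alternatives. Their partners were not called, with Psmg1 at -0.45 (adjusted p = 0.0916) and Psmg3 at -0.29 (adjusted p = 0.345).

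Psme1 and Psme2 form 1 ring and lie close to each other, at chr14:55578123-55581529 on the plus strand and chr14:55587441-55591113 on the minus strand. Psme1 stood at 36.9 and 37.9 CPM for ES, at 50.0 and 56.8 for HB, at 34.5 and 33.6 for HE1, at 47.4 and 62.6 for HE2 and at 75.8 and 47.9 for HP. Psme2 was at 27.2 and 24.3 CPM in the ES libraries, 33.9 and 36.6 in those of HB, 21.4 and 20.9 at the HE1 stage, 26.1 and 33.5 in HE2 libraries and finally 40.8 and 23.4 in HP. HE1 was the lowest stage of both genes and HB lay above ES and HE1 without overlap. The change from HB to HE1 on the log2 scale was -0.65 (SE 0.22, edgeR adjusted p = 0.0409) for Psme1 and -0.74 (SE 0.24, adjusted p = 0.0393) for Psme2, and each of these calls was lost in 5 of 17 alternatives, namely with the replicate block and without either replicate of HB or of HE1. A gene named Psme2b, a near copy of Psme2, is also listed in the matrix, so that reads which match both may be missing from these counts.

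In HE2 against HE1, which compares both stages of the hemogenic endothelium, nearly all members were somewhat higher and few passed the test. The log2 fold change was above 0 for 43 of the 44 genes, with a median of 0.41 where the median of all tested genes was -0.08. The libraries did not overlap and were higher in HE2 for 40 of the 44, and for 28.8% of all tested genes. edgeR called 3 as higher and 0 as lower, beside 6.12% and 7.12% of all tested genes. At an unadjusted p under 0.05, 21 members were higher and 0 lower, beside 15.7% and 19.7% of all tested genes. DESeq2 called 6 and 0 (9.04% and 10.8% of all tested genes) and limma-voom 3 and 0 (6.42% and 7.81%). Without HE1 replicate 2, 42 were above 0 with a median of 0.31 and 0 were called, where 1.65% of all tested genes were called as higher. Also 0 were called without HE2 replicate 2 (1.38% of all tested genes) or ES replicate 1 or 2 (3.69% and 3.66%), 1 without HB replicate 1 or 2 (4.07% and 3.98%), 7 without HE1 replicate 1 (11.4%) and 10 without HE2 replicate 1 (9.07%). The share of counts on 85 ribosomal protein genes was 2.05% and 2.42% in HE1 and 2.83% and 3.15% in HE2, which did not overlap. The nuclear RNA Kcnq1ot1 was at 314 and 581 CPM in HE1 and at 247 and 227 in HE2, also without overlap. Malat1 was at 5325 and 8784 CPM in HE1 and at 6029 and 2699 in HE2, which overlapped. Neat1 was at 55.7 and 316 CPM in HE1 and at 60.2 and 26.9 in HE2, which overlapped too. Their part in the shift of the members was not tested.

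The medians of the roles lay above 0, while 0 of the 31 core and cap subunits were called by edgeR. The median log2 fold change was 0.49 for the alpha ring, 0.42 for the beta ring, 0.32 for the ATPases, 0.40 for the other base subunits, 0.32 for the lid, 0.60 for the chaperones of the base, 0.57 for those of the core and 0.54 for the activators. All 14 core subunits were above 0, between 0.34 and 0.60. None of them was called by edgeR or limma-voom and 1 by DESeq2, while 7 had an unadjusted p under 0.05 in edgeR. The catalytic subunits followed this order. Psmb5 had levels of 60.4 and 60.4 CPM (ES), 49.3 and 62.6 (HB), 49.1 and 46.8 (HE1), 63.8 and 64.3 (HE2) and 67.6 and 46.6 CPM (HP). Psmb6 stood at 130.1 and 122 CPM for ES, at 138 and 177 for HB, at 133 and 137 for HE1, at 159 and 191 for HE2 and at 209.7 and 136 for HP. Psmb7 was at 129 and 124 CPM in the ES libraries, 123 and 163 in those of HB, 128 and 125 at the HE1 stage, 151 and 188 in HE2 libraries and finally 183 and 136 in HP. For all 3 the libraries of HE2 were above those of HE1, and HP replicate 2 was below both HE2 libraries.

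The members called were Psmg2, Psmd5 and Psme3. On the log2 scale Psmg2 changed by 0.64 (SE 0.18, edgeR adjusted p = 0.0448). Psmd5 was at 54.3 and 44.7 CPM at HE1, 68.8 and 83.0 at HE2 and 89.5 and 77.1 at HP, a change of 0.62 (SE 0.17, adjusted p = 0.0408). Psme3 had levels of 182 and 175 CPM (ES), 177 and 207 (HB), 185 and 161 (HE1), 227 and 295 (HE2) and 319 and 266 CPM (HP), a change of 0.59 (SE 0.17, adjusted p = 0.0484). HE2 and HP were above the earlier stages without overlap for both genes. All 3 calls were lost without HE1 replicate 2, and over the alternatives the adjusted p ranged from 0.0168 to 0.283 for Psmg2, from 0.0103 to 0.292 for Psmd5 and from 0.00702 to 0.346 for Psme3. The single member below 0 was the lid subunit Psmd8, singled out here after its values were seen. It was at 128 and 104 CPM at HE1, 121 and 104 at HE2 and 107 and 90.1 at HP.

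**Figure D4:**
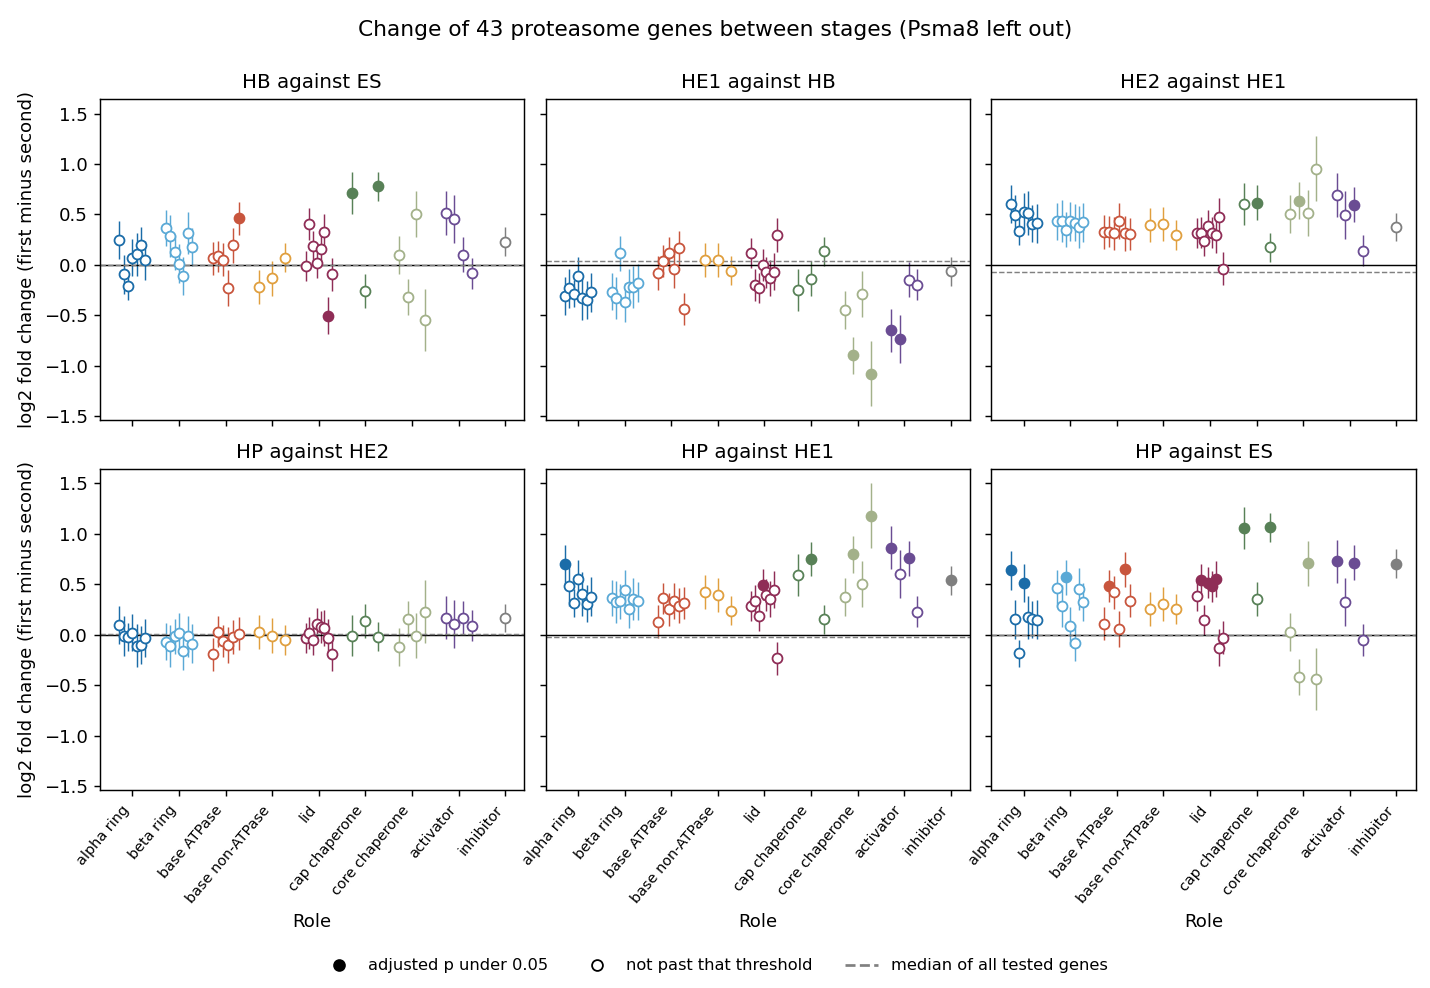
Log2 fold change with its SE for 43 members by role in the 6 comparisons, with filled points for an adjusted p under 0.05, open points otherwise and a dashed line at the median of all tested genes. In HE2 against HE1 all but 1 of the points are above the line at 0 while only 3 are filled, and in HP against HE2 the points lie around 0.

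HP against HE2 gave no call among the members. The median log2 fold change was -0.01, with 18 genes above 0 and 26 below, and with total counts in place of TMM factors 32 were above 0 and 12 below. The split turned with single libraries, to 37 above 0 and 7 below without HE2 replicate 2 and to 6 and 38 without HP replicate 1. edgeR called 0% of all tested genes as higher and 0% as lower, while 2.97% and 4.93% had an unadjusted p under 0.05. Limma-voom and DESeq2 called 0 members, beside 0.173% and 0.611% of all tested genes as higher and 0.119% and 1.25% as lower. Before adjustment 1 member was lower at an edgeR p under 0.05 and 0 were higher. That gene was Psma8, at -1.46 with an edgeR adjusted p of 0.575. The 31 core and cap subunits lay between -0.20 and 0.11.

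HP against HE1, over both steps together, gave 8 members as higher and 0 as lower, beside 11% and 13.9% of all tested genes. With total counts in place of TMM factors 14 were higher (12.3% of all tested genes), and with only the 4 libraries compared 4 were (7.65%). At an unadjusted p under 0.05, 19 were higher and 0 lower, beside 17.7% and 20.9% of all tested genes. Limma-voom called 9 and 0 (11.7% and 14% of all tested genes) and DESeq2 10 and 0 (12.3% and 15.2%). The median log2 fold change was 0.36 for the 44 genes and -0.02 for all tested genes, and 42 genes were above 0. The former was 0.22 without HP replicate 1 and 0.56 without HP replicate 2. The called genes were the alpha subunit Psma1, the lid enzyme Psmd14, the chaperones Psmd5, Psmg2 and Psmg4, the activators Psme1 and Psme3 and the inhibitor Psmf1. Psmg4 changed the most, by 1.18 (SE 0.32, edgeR adjusted p = 0.0225), Psme1 by 0.86 (SE 0.22, adjusted p = 0.0160) and Psmg2 by 0.80 (SE 0.18, adjusted p = 0.0105). The others lay between 0.50 and 0.76. Without HE1 replicate 2 the number called was 1 and without HP replicate 1 it was 0, beside 5.2% and 3.84% of all tested genes called as higher, and 42 and 40 genes were above 0.

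HP against ES compares the ends of the series. edgeR called 15 members as higher and 1 as lower, where 24.1% of all tested genes were higher and 27.5% lower, and the median log2 fold change was 0.32 for the 44 genes and -0.01 for all tested genes. Without HP replicate 1 the former was 0.14, with 26 genes above 0 in place of 36, and without HP replicate 2 it was 0.46. Besides Psmd9 and Psmd10, the largest change among the higher members was that of Psme1, at 0.73 (SE 0.21, edgeR adjusted p = 0.0156). Over the alternatives it ranged from 0.36 to 1.02, and the call was lost without HP replicate 1 or either ES replicate (adjusted p up to 0.195). The remaining 12 were 3 of 14 core subunits (Psma1, Psma4 and Psmb3), 6 of 17 cap subunits (Psmc2, Psmc5, Psmd3, Psmd6, Psmd12 and Psmd14), Psme3, Psmf1 and Psmg3, and lay between 0.48 and 0.71. Psmf1 stood at 24.4 and 22.5 CPM for ES, at 26.7 and 28.3 for HB, at 27.3 and 25.3 for HE1, at 34.3 and 34.0 for HE2 and at 39.0 and 37.5 for HP, with HP above all other libraries. Psme4 was at 384 and 389.8 CPM in the ES libraries, 367 and 363 in those of HB, 356 and 281 at the HE1 stage, 333 and 369.7 in HE2 libraries and finally 367 and 379 in HP, and its change of -0.05 was not called (edgeR adjusted p = 0.801). The count of 15 fell to 3 without HP replicate 1 (18.9% of all tested genes), to 4 and 3 without ES replicate 1 or 2 (14.8% and 14.9%), and rose to 24 with total counts (26.7%). Limma-voom and DESeq2 each called 17 as higher, beside 24.1% and 23.4% of all tested genes. The comparisons share libraries and are not independent of each other.

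The libraries of a stage differed from each other in the same direction for most members. In HP, 42 of the 44 genes were higher in replicate 1 than in replicate 2, with a median log2 difference of 0.36, which is as large as the median shift from HE1 to HP. In HE2, 42 were higher in replicate 2, in HB 41 in replicate 2, in HE1 38 in replicate 1 and in ES 30 in replicate 1. Of all tested genes, between 45.2% and 52.2% were higher in either library of a stage. The summed CPM of the 35 core, cap and activator genes was 4567 and 4448 (ES), 4292 and 5028 (HB), 4608 and 3990 (HE1), 5129.6 and 5960.4 (HE2) and 6130.3 and 4939.8 (HP). HE2 lay above ES, HB and HE1 without overlap, and HP replicate 2 lay below HB replicate 2. With total counts in place of TMM factors, HP replicate 2 lay above HB replicate 2, at 5250.9 against 4951.5 CPM, and HE1 replicate 2 above HE1 replicate 1, at 4511 against 4396 CPM, while HE2 was again above ES, HB and HE1. With TMM factors, the library of each stage in which more members were higher had less of the nuclear RNA Malat1. Malat1 was at 9947 against 10245 CPM in ES, 3863 against 4296 in HB and 5325 against 8784 in HE1. It was at 2699 against 6029 CPM in HE2 and 4004 against 5779 in HP. The nuclear RNAs Neat1 and Kcnq1ot1 were likewise lower in that library in HB, HE1, HE2 and HP. In ES both were higher in it, at 129 against 126 and at 162 against 141 CPM. Cell type markers differed too. In HP the erythroid gene Hba-x was at 1518 and 643 CPM and the stroma gene Acta2 at 529 and 249 CPM in replicates 1 and 2, all 3 erythroid and all 4 stroma markers being higher in replicate 1. In HE2 the blood factor Spi1 was at 26.4 and 65.9 CPM and the endothelial gene Cdh5 at 862 and 412 CPM, all 4 endothelial markers being lower in replicate 2. The part of nuclear enrichment and of the mix of cells in the shared shift was not tested.

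**Figure D5:**
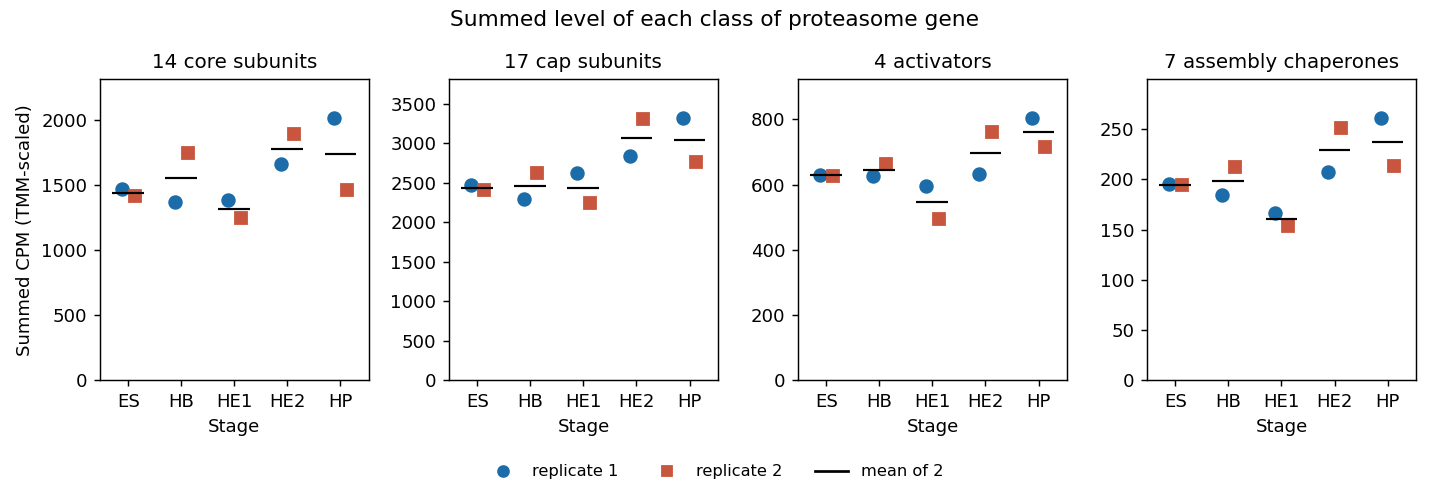
Summed CPM of core subunits, cap subunits, activators and assembly chaperones per library, with a circle for replicate 1, a square for replicate 2, a line at their mean and axes that start at 0. For the core, HE2 replicates are at 1661 and 1891 while HP replicates are at 2010 and 1461, so that HP spans from the level of ES to above HE2.

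Most members also followed each other over the 10 libraries. Pearson's correlation of log2 CPM was taken with the mean of the core subunits, each left out of its own mean. It lay between 0.902 and 0.966 for Psma1, Psma2, Psma4 to Psma7, Psmb1, Psmb2 and Psmb7 of the core. The other beta subunits had 0.897 (Psmb6), 0.867 (Psmb4), 0.802 (Psmb5) and 0.762 (Psmb3). The highest value in the cap was 0.917 for Psmd4. The lowest were those of Psma8 (-0.33), Psmd8 (0.21), Psme4 (0.34), Psmg2 (0.39), Psmd9 (0.40), Psmg4 (0.43) and Psma3 (0.48). Psma3 was at 138 and 131 CPM in ES and at or below 127 CPM in all other libraries, whereas the mean of its ring partner Psma1 was highest in HP. The genes outside the list whose log2 CPM was most like the core mean were Mis18a (0.984), Ppia (0.981), Atp5d (0.979), Mrpl30 (0.977) and Gm27597 (0.968). These correlations are descriptions over 10 libraries, which share their stage in pairs and differ in depth and in Malat1.

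Of 33 further genes of the pathway, 31 were tested. edgeR called 5 as higher and 3 as lower in HB against ES (17.8% and 22.6% of all tested genes). The counts were 4 and 3 in HE1 against HB (17.5% and 14.8%) and 2 and 0 in HE2 against HE1 (6.12% and 7.12%). They were 0 and 0 in HP against HE2 (0% and 0%) and 4 and 1 in HP against HE1 (11% and 13.9%). In HP against ES they were 12 and 3 (24.1% and 27.5%). Without HE1 replicate 2 the HE2 against HE1 calls, those of Psmb10 and Nfe2l2, were lost (log2 values of 0.95 and 0.43). In HP against HE1 the calls of Ecpas and Ngly1 were lost (0.33 and 0.44). In HE1 against HB calls in both directions were lost, among them that of Psmb10 (-0.70). Of the inducible catalytic subunits, Psmb8 and Psmb10 were called as lower in HE1 than in HB, while Psmb9, at no more than 1.52 CPM in any library, had a log2 value of -0.82 that was not called (edgeR adjusted p = 0.220). Psmb10 had levels of 15.5 and 15.6 CPM (ES), 23.2 and 19.5 (HB), 13.1 and 12.7 (HE1), 21.0 and 29.9 (HE2) and 38.8 and 23.7 CPM (HP), a log2 change of 1.28 (SE 0.25, edgeR adjusted p = 0.00535) in HP against HE1 and of -0.72 (adjusted p = 0.0489) in HE1 against HB. Without HE1 replicate 2 the first of these calls was kept (adjusted p = 0.0360) and the other was lost (adjusted p = 0.153), as it was in 9 of 17 alternatives, and without HP replicate 1 the first was lost (adjusted p = 0.0528). Psmb8 rose by 1.20 (SE 0.36, adjusted p = 0.0213) in HB against ES and changed by -1.92 (SE 0.37, adjusted p = 0.00359) in HE1 against HB, at levels of at most 7.41 CPM. The rise was lost without any 1 of the ES and HB libraries, and the change from HB to HE1 was called in all 17 alternatives.

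Several genes that act on the substrate before or at the cap changed by more than 2-fold. Ecpas, a scaffold that binds the proteasome, stood at 74.2 and 70.4 CPM for ES, at 191 and 199.8 for HB, at 276 and 197 for HE1, at 302 and 359 for HE2 and at 328 and 363 for HP, a log2 change of 2.26 (SE 0.18, edgeR adjusted p = 5.12e-06) in HP against ES. Vcp, the unfoldase that extracts tagged proteins, rose from 373 and 378 CPM in ES to 873 and 742 in HP (1.10, adjusted p = 0.000902), and its cofactor Nploc4 from 109 and 109.8 to 258 and 239 CPM (1.19, adjusted p = 8.15e-05). The E1 enzyme Uba6 changed by -1.15 (SE 0.15, edgeR adjusted p = 0.000431) in HE1 against HB, from 144 and 142 to 68.9 and 59.5 CPM, and by -1.05 (adjusted p = 0.00296) without HE1 replicate 2. Of the regulators of proteasome genes, Nfe2l1 was at 313 and 324 CPM in ES and at 173 and 194 in HB (-0.80, adjusted p = 0.00203). Nfe2l2 was at 91.3 and 59.7 CPM in HE1 and at 109 and 138 in HE2 (0.71, adjusted p = 0.0463), and this call was lost in 10 of 17 alternatives, among them without HE1 replicate 2 (0.43, adjusted p = 0.221). Ngly1, an enzyme that acts on the Nfe2l1 protein, was at 6.67 and 7.63 CPM in ES and at 30.8 and 31.2 in HP (2.12, adjusted p = 2.35e-05), and Ddi2, the protease that cuts Nfe2l1, was at 161 and 177 CPM in HB and at 320.1 and 323 in HE1 (0.93, adjusted p = 0.000940), with 0.92 (adjusted p = 0.00252) without HE1 replicate 2.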

How the data were processed

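Nuclear RNA-seq counts for 10 libraries, 2 at each of 5 stages, were analysed. The authors removed ribosomal reads with RiboDetector, trimmed with Trimmomatic, aligned the rest with HISAT2 (v2.2.1; genome build mm10) and made the deposited raw counts with featureCounts (v2.0.1) on Ensembl release 102 genes, counting read pairs in the reverse-stranded mode and on every gene they overlapped. The authors also deposited a matrix with 1 expression score per stage for 15686 genes, which they averaged over libraries, and it was used for the list of genes only. Depth is 24920434 to 58782055 counts, so that a floor of 3 counts is 0.0532 to 0.126 CPM.

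Tests used edgeR (v4.0.16) under R version 4.3.3, with filterByExpr, TMM factors and a quasi-likelihood fit with stage as the only term over all libraries (5 residual degrees of freedom). All 22596 tested genes entered the adjustment. SE is the log2 fold change divided by the root of F. CPM use TMM-scaled library sizes. Alternatives used limma-voom (limma v3.58.1) and DESeq2 (v1.42.0), other scalings, filters and sets of libraries. Per-length levels had been planned as TPM, but Gm23935, with 57 bases of exon, took 38.7% to 58.5% of TPM, so that CPM per kilobase, chosen after seeing the data, is given.

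The members, the lists of pathway genes and markers and the tests were chosen with earlier results of these data known. In each comparison and direction, the 3 members with the largest log2 fold change at an adjusted p under 0.05 are named with values, besides Psmb5 to Psmb7, Psme1 to Psme4 and Psmf1. Pathway genes named passed the threshold and a change of at least 2-fold in some comparison, with exceptions, since Nfe2l1, Nfe2l2, Ddi2, Adrm1, Sem1, Pomp, Psmb9, Psma3, Psma7, Psmd8, Psmg1 and Psmg3 were named after their values were seen. Exons of Psmb5, Psmd1 and Psmg3 overlap another annotated gene on the same strand (Mir686, Gm21972 and Gm26938) by 119, 301 and 517 bases, so that some of their fragments count on both. All 37 mitochondrial genes held 0 counts. Fits were tested on simulated data. Figures used matplotlib (v3.10.9) in Python (v3.11.15).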

Additional observations from a re-analysis of the deposited data

How the results depend on the processing

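None of the 18 named changes of single members reversed in any of 17 alternatives each. Of the 306 values, 247 kept the call and 59 kept the direction and lost it, and 6 changes kept the call throughout. Counts of calls moved more. With total counts in place of TMM, 7 members were called as higher in HB against ES (20.5% of all tested genes). The number was 14 in HP against HE1 (12.3%) and 24 in HP against ES (26.7%). In that setting 26 changed over the 5 stages, and the summed CPM in ES was 4317. With only the 4 libraries compared, the members called numbered 12 higher and 4 lower in HB against ES (29.8% and 33.2% of all tested genes). They numbered 0 higher in HE2 against HE1 (1.96%) and 4 higher in HP against HE1 (7.65%). Without the filter on low counts, 10 were higher in HE2 against HE1 (6.24% of the 39019 genes then tested) and 26 changed over the stages. With only the genes of the matrix, 5 were higher in HB against ES (24.6%) and 2 lower in HP against ES (31.4%). DESeq2 gave 6 higher in HE2 against HE1 (9.04%) and limma-voom 2 lower in HP against ES (29.1%). A change of at least 2-fold left 0 higher and 1 lower in HB against ES, 1 lower in HE1 against HB, 0 higher in HE2 against HE1, 1 higher in HP against HE1 and 2 higher in HP against ES. RLE factors moved no count by over 1.5 times.

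Leaving out 1 library at a time gave 1 to 4 higher and 1 to 2 lower in HB against ES, 1 to 4 lower in HE1 against HB, 0 to 10 higher in HE2 against HE1 (0 without ES replicate 1 or 2, HE1 replicate 2 or HE2 replicate 2, 1 without either HB replicate, 7 without HE1 replicate 1, 10 without HE2 replicate 1), 0 to 11 higher and 0 to 1 lower in HP against HE1, 3 to 19 higher and 1 to 2 lower in HP against ES, and 8 (without ES replicate 2) to 24 over the stages. The share of all tested genes called as higher moved as well, from 9.44% to 19.2% in HB against ES, 1.38% to 11.4% in HE2 against HE1, 3.84% to 14.3% in HP against HE1 and 14.8% to 25.2% in HP against ES, and that called as lower in HE1 against HB from 7.02% to 15.6%. The lowest counts of higher members in HB against ES were without either ES replicate or HB replicate 2, and the lowest of lower members in HE1 against HB without HB replicate 2. The alternatives for single pathway genes and for Psme1 in HE1 against HB were added after seeing the data. A stage left with 1 library is assumed to vary like the others. The cause of these shifts was not tested.

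The labels do not say whether replicate numbers pair the samples across stages. The deviations of replicate 1 from the stage means correlated between -0.316 and 0.213 across pairs of stages. With 2 libraries per stage the sign of these values turns with the numbering, so that they cannot decide whether stages shared a culture. With the replicate block, 1 member was lower in HB against ES, 2 were lower in HE1 against HB and 0 were higher in HE2 against HE1, and no other count moved by over 1.5 times.

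The median TPM of core subunits was 56.6, 50.4, 63.5, 59.5 and 62.4 in ES, HB, HE1, HE2 and HP, and that of cap subunits 53.8, 46.7, 63.6, 51.9 and 53.4. Scaled over the genes of the matrix, the values were 164, 185, 195, 223 and 232 for the core and 156, 173, 195, 195 and 199 for the cap. As CPM per kilobase they were 38.8, 41.9, 39.5, 52.3 and 52.9 for the core and 36.9, 39.0, 39.6, 45.6 and 45.0 for the cap. HE1 is above HE2 in TPM for both sets. For the core it is below HE2 on both other scales, and for the cap it is below HE2 per kilobase and level with it over the genes of the matrix. The order of genes within a library is the same on all 3. Depth limits Psma8 after ES, where 3 to 16 counts per library remained.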

Other observations

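The cap subunits Adrm1 and Sem1 and the core assembly factor Pomp, which the list by symbol leaves out, are described here after their values were seen. Adrm1, a ubiquitin receptor of the base, was at 101 and 88.0 CPM at HE1, 95.8 and 101 at HE2 and 109.7 and 90.8 at HP, and these libraries overlapped. Sem1, a small protein of the lid, was at 60.9 and 60.2 CPM in HE1 and at 77.1 and 80.5 in HE2, and its log2 value of 0.38 was not called (edgeR adjusted p = 0.179). Pomp, the partner of the beta subunits during assembly, was at 59.1 and 75.3 CPM in HE1 and at 65.2 and 66.1 in HE2, with a log2 value of -0.03 (edgeR adjusted p = 0.914), beside 0.35 to 0.44 for the beta subunits in the same comparison. Without HE1 replicate 2 the log2 values were -0.04 for Adrm1, 0.37 for Sem1 and 0.15 for Pomp, with 0.25 to 0.41 for the beta subunits, and none of the 3 was called (edgeR adjusted p = 0.931, 0.404 and 0.718).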
